A study of Mus musculus with 8 samples.

Results

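The comparison set D2-13B6 against D2, in mouse embryonic stem cells, and covered 4 of the 8 H3K27ac HiChIP libraries of the series, chosen by their cell line. D2 was the line D2 5-5 of the inbred strain DBA/2J. D2-13B6 was the congenic line XE 2-4, which carries a segment of C57BL/6J chromosome 13 in a DBA/2J genome. The sample labels spelled its genotype D2.B6-(rs29224292-rs13469455)/Bakr, whereas the series text gave the second marker as rs51756099, and marker positions were not used here. The other 4 libraries came from B6 (line B6 5-1, C57BL/6J) and B6-13D2 (line QJ 6-1, B6.D2-(rs30079041-rs51756099)/Bakr), and they served to estimate spread and to repeat the comparison in the reciprocal background. Each genotype was represented by 1 cell line and 2 technical replicates. A difference between lines therefore could not be told apart from a difference between clones, and p-values measured only the spread between libraries of 1 line. All lines grew with LIF and with inhibitors of MEK and GSK3, which hold mouse embryonic stem cells in the naive state. A positive log2 fold change means more contacts in D2-13B6, that is, with the B6 allele of the interval.

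HiChIP ligates DNA ends that lie near each other in the nucleus and then enriches fragments bound to a chosen protein. Acetylation of lysine 27 on histone H3 marks active promoters and enhancers, so the counts reflect both how strongly a site is acetylated and how often it touches another acetylated site. Congenic lines separate the effect of an exchanged segment from that of the rest of the genome. Mouse chromosome 13 carries a large cluster of KRAB zinc finger genes, whose products bind retrotransposons and other sequences and recruit TRIM28 to silence them. It also carries the main cluster of replication-dependent histone genes.

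The 2 D2 libraries held 831446 and 768078 counts of read pairs, and the 2 D2-13B6 libraries held 1395052 and 1425304. The median tested loop had 6 and 5 counts in D2 against 9 and 9 in D2-13B6. Contacts inside 1 anchor made up 29.5% and 30.9% of the D2 counts and 32.9% and 33.1% of the D2-13B6 counts. Loops spanning at least 100 kb made up 30.6% and 29.1% against 27% and 26.9%. The D2-13B6 libraries thus held more counts and a larger share of short contacts, with no overlap between the lines. Genes of naive pluripotency had an anchor passing the count minimum in 23 of 24 cases. Of the formative or primed epiblast markers, 7 of 10 had one, so this count does not separate the naive from the primed state. Of the fibroblast, trophoblast and primitive endoderm markers, 4, 2 and 2 of 8 each had one, and of the 2-cell-like markers 0 of 9.

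Chromosome 11 took 10.3% of the counts in both D2 libraries and 13.9% and 14.0% in the D2-13B6 libraries, so that its mean share was 1.35 times that of D2. Over single libraries this ratio ran from 1.34 to 1.36. Chromosome 13 went the other way, from 3.4% and 3.42% to 2.80% and 2.82%, a ratio of 0.825 (0.819 to 0.832 over single libraries). The other 17 autosomes had ratios between 0.906 and 1.02. Between the reciprocal lines, B6-13D2 over B6, the ratios were 0.987 for chromosome 11 and 0.997 for chromosome 13. With 2 libraries against 2, the smallest exact permutation p is 1 in 3, and no test was made of these ratios. With a single scaling factor per library, the median log2 fold change of loops was above 0 in all 13 windows of 10 Mb along chromosome 11 (0.22 to 0.54). On chromosome 13, 11 of 12 windows were below 0, the lowest at -0.53. The exception there was 60 to 70 Mb, at 0.03, which holds most of the zinc finger cluster, while 20 to 30 Mb, which holds histone genes, was at -0.03. At anchors all 12 windows of chromosome 13 were below 0, with 60 to 70 Mb at -0.09, the highest, and 20 to 30 Mb at -0.29. Because of the shift of chromosome 11, its loops and anchors were scaled by a factor of their own, and fold changes there are relative to the median shift of that chromosome.

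**Figure D1:**
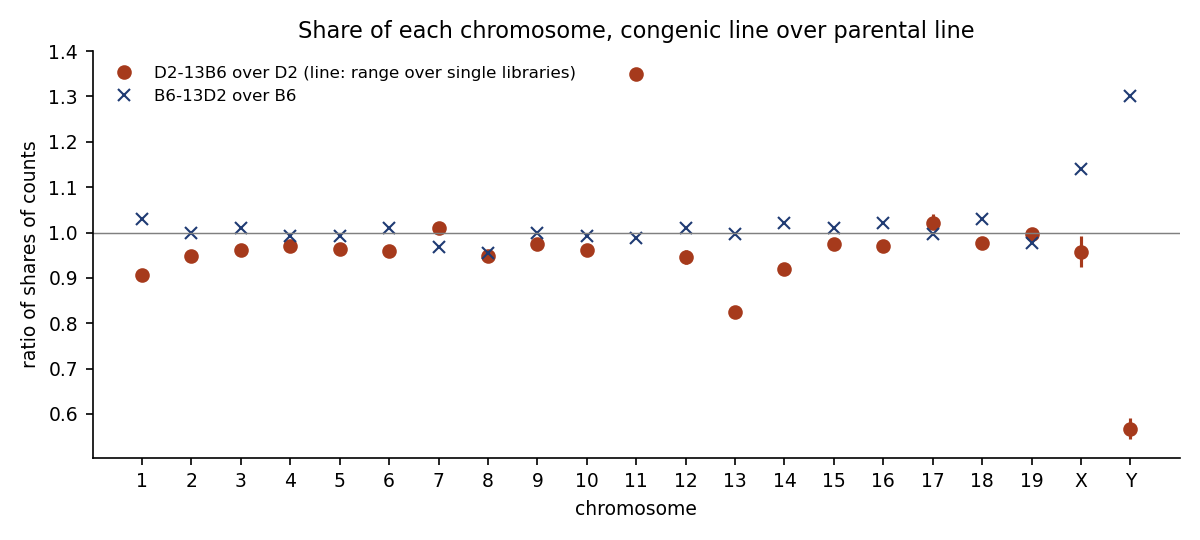
Ratio of the share of counts on each chromosome (x axis) in the congenic line over that in its parental line, for D2-13B6 over D2 (circles, with lines from the lowest to the highest ratio of single libraries) and B6-13D2 over B6 (crosses). In D2-13B6 over D2, chromosome 11 stands at 1.35 and chromosome 13 at 0.825, and chromosome Y, with 0.0138% to 0.0253% of the counts of these libraries, at 0.567.

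Of 44706 tested loops, 241 were called at a false discovery rate (FDR) of 0.05 by edgeR's quasi-likelihood test with Benjamini-Hochberg adjustment, or 0.539%. Of these, 185 were higher (0.414%) and 56 lower (0.125%) in D2-13B6. Summed over all loops that touch an anchor, 655 of 21211 anchors were called, or 3.09%, with 470 higher (2.22%) and 185 lower (0.872%). Most higher calls lay at the most abundant sites. Of the anchors off chromosome 11, the fifth with the fewest counts had a median log2 fold change of -0.20 and the fifth with the most counts had 0.13, and the latter held 372 of the 444 higher calls. In the reciprocal background, B6-13D2, the line with more counts, ran from -0.18 to 0.13 against B6, as the plot of medians by abundance shows. Loop medians did not climb steadily, at 0.08 in the lowest class, -0.04 to -0.01 in the middle ones and 0.08 in the highest, which held 163 of the 176 higher calls. With a trend on abundance removed from each kind of feature, loops off chromosome 11 were split 61 higher and 67 lower, against 176 and 54 with the trend kept. Anchors were split 147 and 182, against 444 and 172. Library totals alone turned the balance at anchors to 183 higher and 364 lower, with the median over these anchors at -0.14 against -0.02. Which direction prevailed genome-wide was thus not settled by these data, and values below are given for single sites. The part that the number of counts per library played in the trend was not tested. Single libraries also set the number of calls. Without D2 replicate 1 there were 47 called loops and 52 anchors, without D2 replicate 2 there were 69 and 100, without D2-13B6 replicate 1 there were 101 and 228, and without D2-13B6 replicate 2 there were 58 and 62.

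**Figure D2:**
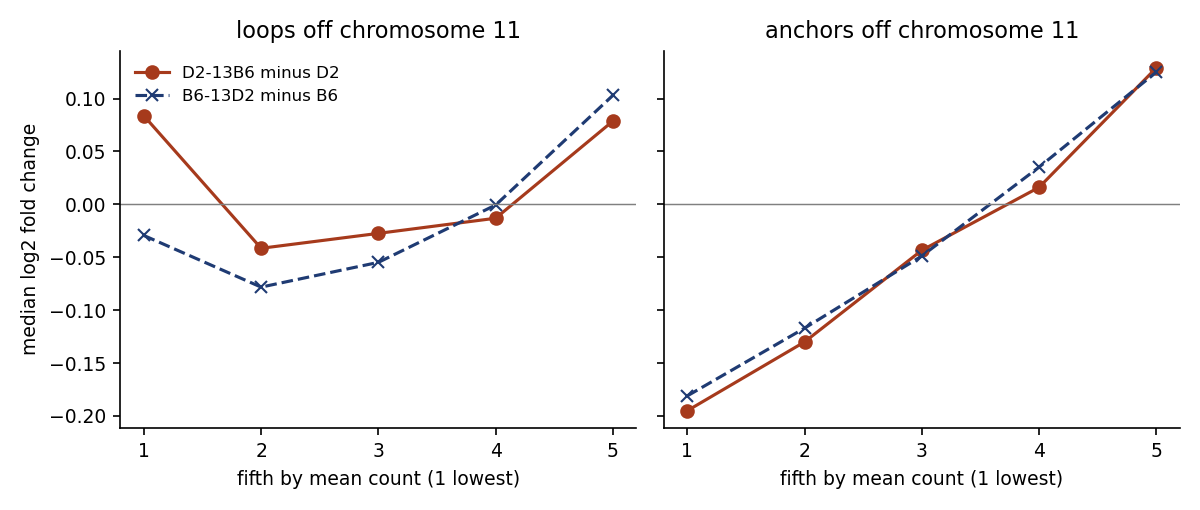
Median log2 fold change of loops (left) and anchors (right) off chromosome 11 in 5 classes by mean count over the 8 libraries (x axis, 1 is lowest), for D2-13B6 minus D2 (circles) and B6-13D2 minus B6 (crosses). At anchors the first series rises from -0.20 to 0.13 and the second from -0.18 to 0.13, while at loops the first stands at 0.08 in both the lowest and the highest class.

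On chromosome 13, 25 of 1453 tested loops were called, or 1.72%, with 11 higher and 14 lower, and 50 of 916 anchors, or 5.46%, with 17 higher and 33 lower. At anchors, 60 to 70 Mb held 12 of the higher and 5 of the lower calls, and 20 to 30 Mb held 4 and 2. Which calls lie inside the exchanged segment was not determined, since marker positions were not used. With a scaling factor for each chromosome, the split over chromosome 13 was 18 and 7 at loops and 38 and 8 at anchors. The prevailing direction there thus depended on whether the lower share of the whole chromosome was kept. Contacts inside the anchor at Zfp729a, a zinc finger gene (chr13:67635001-67655000, GRCm38), fell the most clearly. In counts scaled to library size (CPM, counts per 1000000), they stood at 55.3 and 63 in D2 and at 4.51 and 6.67 CPM in D2-13B6. The log2 fold change was -3.37 (SE 0.34, FDR 1.71e-18), at a site named by rank among those whose D2 and D2-13B6 libraries do not overlap. The reciprocal lines had 57.8 and 40.9 CPM in B6-13D2 and 9.19 and 3.96 CPM in B6, a log2 fold change of -2.79 in the same direction, B6 allele minus D2 allele (FDR 1.53e-10). In its contacts with other anchors, scaled the same way, D2 had 83.8 and 66.6 CPM and D2-13B6 had 79.1 and 72.5 CPM, so the lines overlapped. None of its 9 tested loops to other anchors was called by edgeR. Its anchor sum accordingly moved less, from 136 and 128 CPM to 83.6 and 79.4 CPM (log2 fold change -0.70, SE 0.16, FDR 0.00459). In the B6 background the anchor sum stood at 0.04 (FDR 0.923), and the difference between backgrounds was -0.74 (FDR 0.0434).

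Next to it, an anchor with starts of Zfp729b, a paralog, and also of Zfp729a in or within 5 kb of it (chr13:67605001-67620000) rose from 74.8 and 64.1 CPM to 125 and 123 CPM. The log2 fold change was 0.83 (SE 0.17, FDR 0.00103), and it was 0.90 in the B6 background (FDR 0.000141). Of 11 tested loops from this anchor to others, 10 had a fold change above 0, although none was called by edgeR. Zfp748, a further zinc finger gene (chr13:67545001-67555000), rose from 65.9 and 49.0 CPM to 106 and 84.7 CPM (log2 fold change 0.72, SE 0.19, FDR 0.0168). The anchor shared by Zfp459 and Zfp874a (chr13:67410001-67440000) rose from 229 and 268 CPM to 361 and 396 CPM (log2 fold change 0.61, SE 0.12, FDR 0.000654). Zfp493 (chr13:67790001-67805000) rose from 144 and 127 CPM to 214 and 204 CPM (log2 fold change 0.62, SE 0.14, FDR 0.0036). At each of these anchors both D2-13B6 libraries lay above both D2 libraries, which naming by rank required at that of Zfp729b. Zfp456 (chr13:67375001-67380000) fell from 49.1 and 74.1 CPM to 32.7 and 30.5 CPM (log2 fold change -0.95, SE 0.23, FDR 0.0084). Over the whole list of chromosome 13 zinc finger genes, 4 of 31 tested anchors rose and 2 fell, where 2.22% and 0.872% of all tested anchors did. The list's median log2 fold change was -0.11, against -0.02 over all tested anchors and -0.27 over those of chromosome 13. In the B6 background, B6 minus B6-13D2, 8 of the 31 were higher and 1 lower, with a median of 0.23, where 1.83% of all tested anchors were higher and 3.46% lower, with a median of 0.01. Genes of this cluster are close copies, and the sources used here do not give the handling of reads that match several copies. Without D2 replicate 2, the anchor of Zfp729b and Zfp729a had a log2 fold change of 0.73 and was no longer called. Leaving out either D2 library gave 2 and 1 calls over the list, and leaving out either D2-13B6 library also gave 2 and 1.

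Promoters from 2 zinc finger anchors with opposite changes are shown with that of Nlrp4f, since each lies in an anchor that was called. They come from the RefSeq promoter table for GRCm38.p6 and run from 250 bases before to 50 bases after the annotated start, 5′ to 3′ on the minus strand. Capitals mark matches to the motif of the general promoter factor ZNF143 (its long gapped form). Both strands were searched for it and for the letters of the TATA box (TATAAA), of the CCAAT box, of the SP family's GC box (GGGCGG) and of the site of OTX and CRX homeobox factors (TAATCC), which had no match in these 3 promoters. Zfp729a lies at chr13:67637732-67638031, Zfp748 at chr13:67553103-67553402 and Nlrp4f at chr13:65205667-65205966.
Zfp729a: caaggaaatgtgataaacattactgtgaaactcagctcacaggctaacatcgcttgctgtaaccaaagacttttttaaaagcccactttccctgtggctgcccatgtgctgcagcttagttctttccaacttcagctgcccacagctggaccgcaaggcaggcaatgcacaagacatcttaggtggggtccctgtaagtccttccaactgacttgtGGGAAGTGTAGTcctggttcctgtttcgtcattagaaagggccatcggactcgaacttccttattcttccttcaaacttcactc
Zfp748: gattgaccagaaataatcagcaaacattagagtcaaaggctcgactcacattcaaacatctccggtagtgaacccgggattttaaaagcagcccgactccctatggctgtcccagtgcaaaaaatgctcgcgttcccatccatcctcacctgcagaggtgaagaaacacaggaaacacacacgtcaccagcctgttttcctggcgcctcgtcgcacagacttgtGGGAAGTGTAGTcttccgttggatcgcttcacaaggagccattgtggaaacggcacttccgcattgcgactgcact
Nlrp4f: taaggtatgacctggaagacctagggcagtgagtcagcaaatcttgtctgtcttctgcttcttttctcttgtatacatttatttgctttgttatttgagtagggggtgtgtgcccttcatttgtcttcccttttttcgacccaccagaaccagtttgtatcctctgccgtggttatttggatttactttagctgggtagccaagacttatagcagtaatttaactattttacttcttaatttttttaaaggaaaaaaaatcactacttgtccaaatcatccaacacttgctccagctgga
The ZNF143 motif was found in 1.8% of 32851 promoters of this length (13.6%, 37.4%, 35.7% and 7.1% for the other 4 in that order) and in 21 of the 33 chromosome 13 zinc finger genes that have an entry. Of the 18 with a match and a tested anchor, 2 were called higher and 2 lower, where 2.22% and 0.872% of all tested anchors were. Of the 9 without a match 1 was called, where 3.09% of all tested anchors were called in either direction. That gene is Zfp459, whose anchor is also that of Zfp874a, which has a match, so this anchor counts on both sides. The Zfp729a promoter shown, in the anchor that fell, and that of Zfp748, in an anchor that rose, each had 1 match, and Zfp729a was counted here by that anchor alone. Their promoters were identical at 204 of 331 columns of a global alignment, gaps included, or 61.6%, and no unrelated pair was aligned for comparison.

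Other sites on chromosome 13 changed alike in both backgrounds. Contacts inside an anchor with starts of non-coding genes such as Gm48360 (chr13:66540001-66605000) numbered 2 and 0 in D2 and 65 and 50 in D2-13B6. The rate was 34.9 times as high in D2-13B6 (exact 95% interval 9.45 to 292, counting error only), and edgeR gave an FDR of 1.76e-15. In B6 there were 48 and 19 counts, at least 30.3-fold above B6-13D2, where each library was at 0 (floor of 3 counts over the group). Contacts inside the anchor at Nlrp4f (chr13:65200001-65230000), a member of the NLR family known from oocytes, rose from 55.3 and 55.3 CPM to 137 and 121 CPM. The log2 fold change was 1.22 (SE 0.19, FDR 5.88e-07), and it was 1.36 in the B6 background (FDR 9.16e-12). The sum of that anchor rose as well, from 112 and 143 CPM to 284 and 245 CPM (log2 fold change 1.06, SE 0.14, FDR 1.57e-07). A short loop from the anchor at Naa35, an auxiliary subunit of an N-terminal acetyltransferase, into the body of Golm1 rose from 4.71 and 2.57 CPM to 12.8 and 22.2 CPM. Its log2 fold change was 2.21 (SE 0.53, FDR 0.00978), but the call was lost without D2 replicate 1 (2.69), D2 replicate 2 (1.87) or D2-13B6 replicate 2 (1.76). An anchor without an annotated gene start (chr13:63965001-63985000) rose from 78.2 and 91.7 CPM to 154 and 139 CPM. Its log2 fold change of 0.79 (SE 0.16, FDR 0.000842) was not called without replicate 1 of D2 (0.68) or of D2-13B6 (0.72).

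Among the sites that fell on chromosome 13, a loop of 2 neighbouring anchors without a gene start (chr13:19950001-19955000 to chr13:19960001-19970000) went from 167 and 197 CPM to 81.9 and 93.3 CPM. Its log2 fold change was -1.05 (SE 0.16, FDR 2.63e-07), and the B6-background lines held only 11.2 to 23.3 CPM, with no call between them (log2 fold change -0.56, FDR 0.672). The loop from 2410141K09Rik to the anchor of Gm48360 fell from 11 and 11 counts to 1 and 2, a rate 12.1 times as high in D2 (exact 95% interval 3.63 to 63, edgeR FDR 0.00044). Gm48360 thus had more contacts inside its anchor and fewer with this neighbour. That second call was lost without D2-13B6 replicate 1 (log2 fold change -3.09). At Gm26349, a non-coding gene (chr13:118015001-118040000), contacts inside the anchor fell from 70.6 and 50.1 CPM to 28.6 and 23.0 CPM (log2 fold change -1.23, SE 0.25, FDR 0.000451). The sum at Cetn3 (chr13:81795001-81805000), which encodes a centrin of the centrosome, fell from 38.0 and 45.2 CPM to 13.7 and 15.3 CPM (log2 fold change -1.51, SE 0.30, FDR 0.000627). At Cetn3 the B6 background went the same way, with a log2 fold change of -0.89 (FDR 0.00536). Akr1c21, an aldo-keto reductase (chr13:4555001-4575000), fell from 36.9 and 40.2 CPM to 13.7 and 13.0 CPM (log2 fold change -1.52, SE 0.31, FDR 0.000773). In the B6 background its value was 0.20, and the difference between backgrounds was -1.72 (FDR 0.0134), which was at FDR 0.0696 with the trend on abundance removed. The Gm26349 loop lost its call without D2 replicate 1 (-0.98) or D2-13B6 replicate 2 (-1.08), and so did its anchor (-0.92 and -1.06). Cetn3 lost it without D2 replicate 2 (-1.38), and Akr1c21 without D2 replicate 1 (-1.58), D2 replicate 2 (-1.46) or D2-13B6 replicate 2 (-1.48).

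Histone genes were also among the sites that changed on chromosome 13. Contacts inside the anchor from Hist1h4h to Hist1h4d (chr13:23530001-23600000) stood at 329 and 400 CPM in D2 and at 502 and 749 CPM in D2-13B6, a log2 fold change of 0.78 (SE 0.12, FDR 1.95e-07). The D2-13B6 libraries lay far apart from each other, and the call was lost without D2 replicate 1 (0.62), without D2-13B6 replicate 2 (0.46) and with DESeq2 (adjusted p 0.0603). In the B6 background the same contacts went the other way, from 338 and 346 CPM in B6-13D2 to 132 and 187 CPM in B6 (log2 fold change -1.12, FDR 2.4e-12). The difference between backgrounds was 1.90 (FDR 1.48e-21) and was still called with the trend on abundance removed (FDR 1.63e-14). Of the 14 tested anchors with histone genes, 6 rose and none fell by edgeR, where 2.22% of all tested anchors rose. Their median log2 fold change was 0.41, against -0.02 over all tested anchors. In B6 minus B6-13D2, 0 rose and 12 fell by edgeR (median -0.86), where 1.83% and 3.46% of all tested anchors did (median 0.01). In the D2 background 2 of the 6 that rose lay at the Hist2 cluster on chromosome 3, outside chromosome 13. One of them, with Hist2h2aa1 to Hist2h4 (chr3:96235001-96280000), rose from 510 and 486 CPM to 741 and 883 CPM (log2 fold change 0.70, SE 0.11, FDR 8.71e-06). These genes encode the histones made during DNA synthesis, and cell cycle phase was not measured. With the trend removed 2 of the 14 were higher, both at Hist2, and none of the 4 on chromosome 13 was called (FDR 0.0929 to 0.3). The count was 1 without D2 replicate 1, 3 without D2 replicate 2 and 2 without D2-13B6 replicate 2.

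Sites named by rank were chosen among those whose D2 and D2-13B6 libraries do not overlap. Off chromosomes 11 and 13, 205 of 38431 tested loops were called, or 0.533%, with 165 higher and 40 lower. The higher loop with the smallest FDR joined a site without a gene start (chr19:10125001-10150000) to the anchor at Fads1, a fatty acid desaturase (chr19:10160001-10185000). It stood at 115 and 126 CPM in D2 and at 247 and 257 CPM in D2-13B6 (log2 fold change 1.06, SE 0.15, FDR 9.14e-09). The B6 background gave 0.77 (FDR 0.000672), in the same direction. Summed over its 51 partners and its own contacts, the Fads1 anchor rose from 294 and 319 CPM to 589 and 625 CPM (log2 fold change 0.99, SE 0.12, FDR 7.97e-09). The anchor of Dmtn, an actin-bundling protein, and Fgf17, a growth factor (chr14:70615001-70640000), had its own contacts rise from 49.4 and 38.6 CPM to 103 and 114 CPM (log2 fold change 1.29, SE 0.20, FDR 8.65e-07). At the non-coding gene Gm13853 (chr6:33980001-34005000) they rose from 27.1 and 20.6 CPM to 71.4 and 77.0 CPM (log2 fold change 1.63, SE 0.25, FDR 5.61e-07). Both anchor sums rose too, by 1.14 (FDR 1.59e-06) and 1.00 (FDR 3.55e-06) on the log2 scale. Gm13853 was higher with the B6 allele in the B6 background also (1.16 for contacts inside, FDR 0.0384).

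Some named sites held genes known from germ cells, oocytes or pluripotent cells, and they are described together with no test of them as a group. The anchor of Obox6, an oocyte-specific homeobox gene, and of an annotated start of Crx, a photoreceptor homeobox gene (chr7:15830001-15870000), rose from 131 and 134 CPM to 287 and 282 CPM. The log2 fold change was 1.10 (SE 0.14, FDR 1.18e-08), with all 5 tested loops to other anchors above 0. In the B6 background it was 2.13 (FDR 3.71e-18), from 51.6 and 50.1 CPM in B6-13D2 to 229 and 217 CPM in B6. The change was thus in the same direction but smaller on the D2 background, by 1.03 on the log2 scale (FDR 0.00169). An anchor in the body of Boll, which encodes an RNA-binding protein of germ cells (chr1:55350001-55355000), rose from 16.8 and 21.4 CPM to 71.5 and 66.4 CPM. Its log2 fold change of 1.86 (SE 0.26, FDR 5.06e-07) was close to that of the B6 background, at 1.83, and the difference between them was 0.03 (SE 0.46). Contacts inside the anchor of Gsta2, Dppa5a, Ooep and Ddx43 (chr9:78355001-78395000) rose from 249 and 270 CPM to 452 and 469 CPM (FDR 2.1e-07, log2 fold change 0.83 with SE 0.12). Dppa5a is a marker of pluripotent cells, and Ooep encodes a maternal protein of the oocyte. The B6-background value was -0.04, and the difference between backgrounds, 0.87 (FDR 0.000925), was no longer called with the trend on abundance removed (FDR 0.483). Over the list of oocyte and early embryo families, 2 of 8 tested anchors rose, those of Obox6 and Nlrp4f, and none fell by edgeR, with 2.22% of all tested anchors higher. The median log2 fold change of this list was 0.19, against -0.02 over all tested anchors.

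Stoml1, a stomatin-like gene (chr9:58265001-58290000), had 88.2 and 82.3 CPM inside its anchor in D2 and 185 and 168 CPM in D2-13B6 (log2 fold change 1.05, SE 0.17, FDR 9.58e-07). Mkrn1, which encodes an E3 ubiquitin ligase (chr6:39390001-39460000), had 653 and 698 CPM against 1009 and 1142 CPM (log2 fold change 0.67, SE 0.11, FDR 1.01e-06). Neither gene rose in the B6 background. There Stoml1 stood at -0.09 (FDR 0.926) and Mkrn1 fell by 0.47 on the log2 scale (FDR 0.00694). The difference between backgrounds was 1.14 at each, with FDR 0.00165 at Stoml1 and 1.41e-09 at Mkrn1. With the trend removed it was called at Mkrn1 (FDR 0.0145) and not at Stoml1 (FDR 0.129). Among anchors, one with the non-coding gene 2210420H20Rik on chromosome 18 rose from 353 and 373 CPM to 630 and 653 CPM (log2 fold change 0.82, SE 0.11, FDR 3.19e-07).

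The lower sites off chromosomes 11 and 13 are given next. Within Aass, an enzyme of lysine breakdown, an anchor away from the gene's start (chr6:23065001-23095000) had its own contacts fall from 111 and 136 CPM to 50.4 and 34.1 CPM (log2 fold change -1.54, SE 0.19, FDR 1.86e-11). The B6 background gave -1.02 (FDR 0.000569). In the body of Adam32, of the ADAM family (chr8:24895001-24925000), they fell from 85.9 and 118 CPM to 50.4 and 45.2 CPM (log2 fold change -1.09, SE 0.20, FDR 4.78e-05). The sum of the Adam32 anchor fell by 0.91 (FDR 1.03e-06), and 12 of its 13 tested loops to other anchors had a fold change below 0. In the B6 background that sum fell by 0.65 (FDR 0.00126). In the body of Fmnl2, a formin (chr2:52895001-52925000), contacts fell from 134 and 139 CPM to 75.2 and 68.9 CPM (log2 fold change -0.92, SE 0.17, FDR 0.000108). Within Nrcam, a neuronal adhesion gene, a loop (chr12:44480001-44485000 to chr12:44490001-44495000), fell from 61.2 and 88.7 CPM to 33.1 and 35.5 CPM (log2 fold change -1.11, SE 0.22, FDR 0.000501). It was nearly absent in the B6-background lines, with 4 and 0 counts in B6 and 0 and 2 in B6-13D2. A loop without gene starts on chromosome 1 (chr1:191925001-191935000 to chr1:191940001-191950000) likewise had 131 and 125 CPM in D2, 67.6 and 54.1 CPM in D2-13B6 and at most 17.5 CPM in the B6-background libraries. Its log2 fold change was -1.07 (SE 0.18, FDR 7.88e-06).

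An anchor in the body of Etl4 (chr2:20380001-20400000) fell from 84.9 and 60.3 CPM to 19.8 and 35.9 CPM (log2 fold change -1.39, SE 0.23, FDR 3.64e-05). Its value in the B6 background was 0.02, and the difference of -1.41 was called with the trend kept (FDR 0.00485) and removed (FDR 0.0184). The anchor of Akr1cl, an aldo-keto reductase gene, and Cryge, a lens crystallin gene (chr1:65035001-65055000), fell from 299 and 339 CPM to 188 and 207 CPM (log2 fold change -0.69, SE 0.13, FDR 0.000202). All 13 tested loops from it to other anchors had a fold change below 0. A loop on chromosome Y, from chrY:90715001-90745000 into the body of Gm47283, fell by 0.87 (FDR 4.78e-05), but stood at -0.02 (FDR 0.99) when each chromosome had its own factor. The sum of the anchor at chrY:90715001-90745000 went from 207 and 214 CPM to 121 and 112 CPM (log2 fold change -0.85, FDR 8.88e-05) and was still called with such factors (-1.03, FDR 1.1e-07). For chromosome Y those factors rested on 5 tested loops or on few tested anchors, this site among them. They therefore cannot decide whether the site moved apart from the chromosome. Calls were lost without D2 replicate 2 at the Adam32 loop (-0.85), the Nrcam loop (-0.84) and the anchor of Akr1cl (-0.60). They were also lost without D2-13B6 replicate 1 at Nrcam (-1.07), without D2-13B6 replicate 2 at the Fmnl2 loop (-0.86) and without D2 replicate 1 at Etl4 (-1.11).

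**Figure D3:**
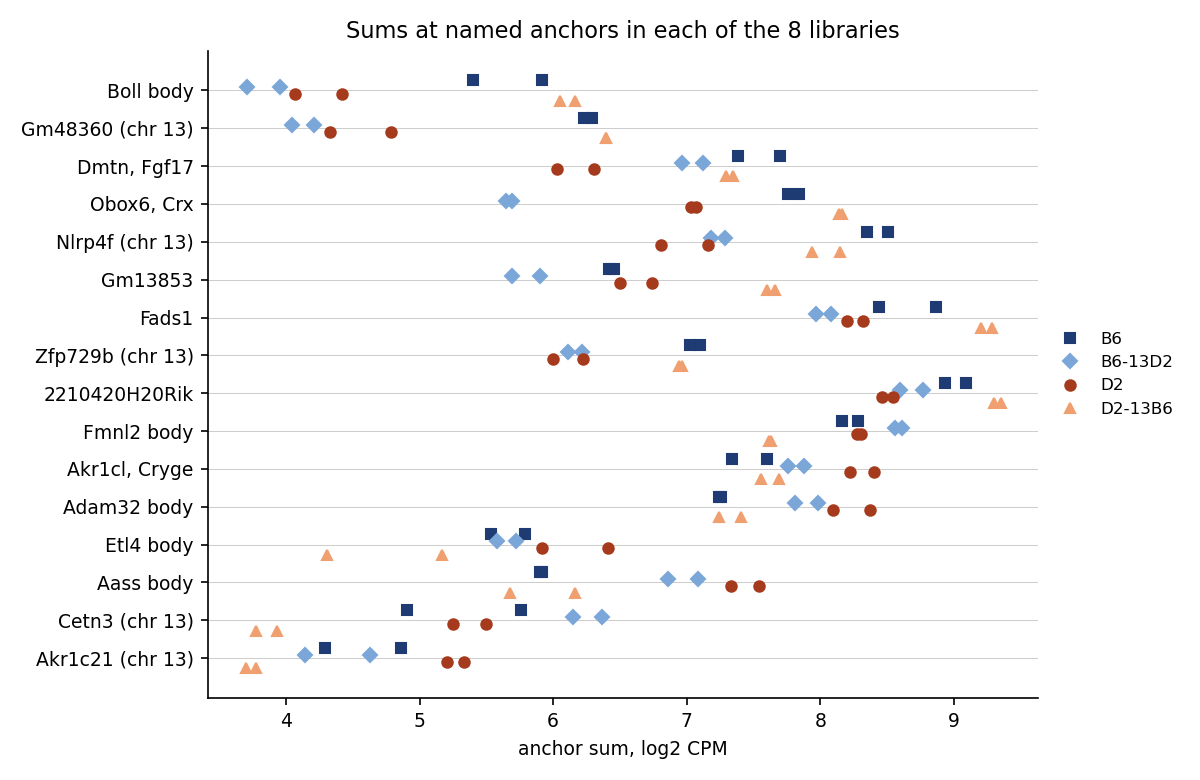
Anchor sums as log2 CPM (x axis) for 16 of the named anchors off chromosome 11 (y axis), 1 symbol per library, with 2 libraries for each of B6 (squares), B6-13D2 (diamonds), D2 (circles) and D2-13B6 (triangles). The anchors were chosen among those whose D2-13B6 and D2 libraries do not overlap, and at Boll, Gm48360, Nlrp4f and Zfp729b the B6 libraries lie with D2-13B6, above B6-13D2 and D2.

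Within chromosome 11, scaled on its own, 11 of 4822 tested loops were called, or 0.228%, with 9 higher and 2 lower, and 39 of 1660 anchors, or 2.35%, with 26 higher and 13 lower. With 1 factor for all chromosomes these counts were 182 higher and 0 lower at loops, and 511 higher and 1 lower at anchors. Lif, the cytokine of the culture medium (chr11:4245001-4255000), rose beyond the chromosome's shift, from 61.6 and 61.9 CPM to 107 and 115 CPM (log2 fold change 0.85, SE 0.18, FDR 0.0013). The B6 background, where chromosome 11 was not shifted, gave 0.69 (FDR 0.0118). Kdm6b, a demethylase of lysine 27 on histone H3 (chr11:69405001-69430000), rose from 233 and 221 CPM to 337 and 358 CPM (log2 fold change 0.62, SE 0.12, FDR 0.000675). The anchor of Xbp1, a factor of the unfolded protein response, and Ccdc117 (chr11:5485001-5545000) had its own contacts rise from 397 and 440 CPM to 619 and 632 CPM (log2 fold change 0.58, SE 0.11, FDR 0.000304). Own contacts of the anchor from Fxr2 through Sox15 to Tnfsf12 (chr11:69650001-69720000) rose from 642 and 596 CPM to 829 and 905 CPM (log2 fold change 0.49, SE 0.11, FDR 0.00323). With the trend on abundance removed, neither of these 2 loops was called (FDR 0.0578 and 0.361). Lower than the chromosome's shift were an anchor in the body of Timp2, a metalloproteinase inhibitor (chr11:118300001-118310000), and the anchor of Papolg, a poly(A) polymerase (chr11:23890001-23905000). Timp2 went from 80.1 and 91.4 CPM to 39.6 and 39.0 CPM (log2 fold change -1.12, SE 0.19, FDR 8.61e-05), and Papolg from 57.9 and 55.1 CPM to 29.7 and 31.5 CPM (log2 fold change -0.88, SE 0.23, FDR 0.0126). The loop from Usp36, a deubiquitinase, into Timp2 fell by 1.40 (FDR 0.0012), and a loop between 2 anchors of Arf2 fell by 0.88 (FDR 0.0491). With 1 factor for all chromosomes, the values were -0.95 (FDR 0.0906) for Usp36 to Timp2, -0.44 (FDR 0.577) for Arf2 and -0.41 (FDR 0.329) for Papolg.

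Apart from the Timp2 anchor, each chromosome 11 call named above was lost when some single library was left out. Papolg and Arf2 lost it without any of the 4 (-0.93 to -0.84 and -1.02 to -0.78). Lif, Kdm6b and the loop of Fxr2 lost it without D2 replicate 1 (0.85, 0.66 and 0.51), D2 replicate 2 (0.86, 0.58 and 0.43) or D2-13B6 replicate 2 (0.80, 0.57 and 0.42). Xbp1 lost it without D2 replicate 1 (0.48) or D2-13B6 replicate 2 (0.57), and Usp36 without D2 replicate 2 (-0.95) or D2-13B6 replicate 1 (-1.27).

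Contacts inside 1 anchor were called more often than contacts between anchors. Off chromosome 11, 132 of 4294 were called (3.07%), against 84 of 20061 loops between anchors under 100 kb apart (0.419%), 14 of 12925 from 100 to 500 kb (0.108%) and 0 of 2604 at 500 kb and over by edgeR. The median of the mean count was 21.2, 8.62, 5.12 and 4.12 in these classes, so the share called fell as counts did, and its dependence on counts was not tested. Anchors with a protein-coding start numbered 10151, of which 290 were higher and 63 lower, and distal anchors numbered 9400, with 154 and 109. With the trend removed, these were 68 and 83 at promoter anchors and 79 and 99 at distal anchors.

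The reciprocal comparison, B6 minus B6-13D2, shares no library with this one and gave 397 called loops (0.888%), 143 higher (0.32%) and 254 lower (0.568%). It gave 1122 called anchors (5.29%), 388 higher (1.83%) and 734 lower (3.46%). Off chromosomes 11 and 13, 281 of the 566 anchors called in D2-13B6 against D2 had the same sign there, or 49.6%. With the trend on abundance removed in both, 208 of 287 did, or 72.5%. At loops the shares were 51.7% (106 of 205) and 71.7% (76 of 106). Anchors called in both comparisons with the same sign numbered 56, which is 9.89% of the calls on the D2 background and 5.79% of the 967 on the B6 background, and 40 were called with opposite signs. With the trend removed these numbers were 59 and 5. On chromosome 13, 38 of 50 called anchors had the same sign, 15 passed in both comparisons in 1 direction, and the 4 that passed in opposite directions were histone anchors. The difference between backgrounds was called at 231 loops (0.517%), 212 higher (0.474%) and 19 lower (0.0425%). At anchors it was called at 766 (3.61%), 586 higher (2.76%) and 180 lower (0.849%). With the trend removed these fell to 58 loops and 197 anchors. Both congenic lines held more counts than their parental lines, though B6-13D2 replicate 1 (982278) was close to B6 replicate 1 (952040). In this contrast the number of counts and the difference between backgrounds cannot be told apart.

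**Figure D4:**
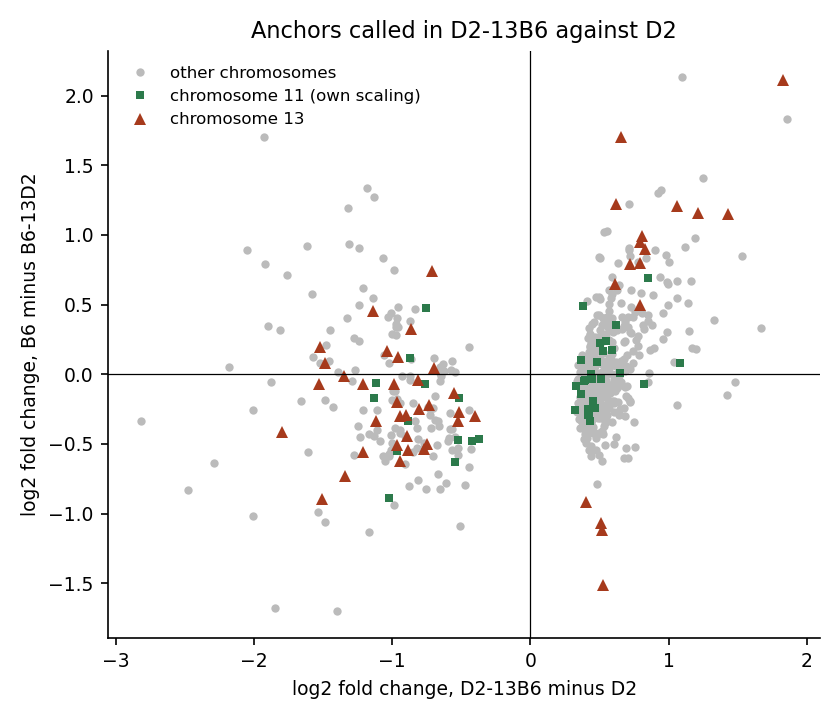
Log2 fold change in D2-13B6 minus D2 (x axis) and in B6 minus B6-13D2 (y axis) of the 655 anchors called in the former, on chromosome 13 (triangles), chromosome 11 with its own scaling (squares) and other chromosomes (circles). On chromosome 13, 13 of the 17 anchors that rose are also called higher in the B6 background, and 4, the histone anchors, lie far below 0.

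Gene lists of the culture state and of silencing were compared with all tested anchors, of which 2.22% rose and 0.872% fell, with a median log2 fold change of -0.02. Anchors of gene lists, here and above, are named by the genes of the list alone. They can hold starts of other genes, as that of Dppa5a does, so a sum is not that of 1 gene. Of 22 tested anchors of naive pluripotency genes, 3 rose and none fell by edgeR, with a median log2 fold change of 0.25. Sall4 (chr2:168740001-168795000), a zinc finger factor of the pluripotency network, rose from 465 and 463 CPM to 646 and 645 CPM (log2 fold change 0.48, SE 0.12, FDR 0.00807). Pou5f1 (chr17:35480001-35520000), which encodes OCT4, rose from 643 ± 11.5 CPM to 867 ± 25.6 CPM, both D2-13B6 libraries being above both D2 libraries (log2 fold change 0.43, SE 0.11, FDR 0.0118). The sum at Dppa5a rose by 0.69 (FDR 1.05e-05). Values that were not called included Nanog at 0.34 (FDR 0.0527), Sox2 at 0.28 (FDR 0.189) and Klf4 at -0.08 (FDR 0.883). These are abundant anchors, and with the trend removed 1 of the 22 was called and the median was 0.07. The count was 1 without any single library of the 4. Among factors of silencing by KRAB zinc finger proteins, DNA methylation and heterochromatin, 4 of 27 tested anchors rose and none fell by edgeR (median 0.11), against the same 2.22% and 0.872%. Trim28, the corepressor of KRAB zinc finger proteins (chr7:13005001-13045000), rose from 488 and 475 CPM to 684 and 765 CPM (log2 fold change 0.59, SE 0.11, FDR 0.000327). Daxx, a histone chaperone, rose by 0.50 (FDR 0.0029), Zfp57, a zinc finger protein of imprinted genes, by 0.45 (FDR 0.0025), and Morc3 by 0.37 (FDR 0.0228). With the trend removed 1 anchor of this list was higher and 1 lower. The count was 0 without D2 replicate 1, D2 replicate 2 or D2-13B6 replicate 2.

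None of the 14 tested anchors of genes that respond to LIF and the inhibitors was called by edgeR, nor any of 7 of formative or primed genes, 5 of germline genes silenced by DNA methylation, 4 of fibroblast, 2 of trophoblast and 2 of primitive endoderm genes. With 3.09% of all tested anchors called, lists of this size would hold few calls or none at the overall rate, so these zeros say little about the genes. The LIF and inhibitor list had a median of -0.05, from Spry2 at -0.52 to Socs3 at 0.35. Summed over its tested anchors, the fibroblast list held 135 and 109 CPM (of library totals) in D2 and 100 and 119 in D2-13B6, so the lines overlapped. That sum includes Col1a1 on the raised chromosome 11, with 39 and 21 counts in D2 and 63 and 81 in D2-13B6. The trophoblast list held 83.0 and 107 against 57.3 and 58.2, and the primitive endoderm list 51.7 and 44.3 against 29.4 and 40.0. Of the 2 trophoblast anchors, Tfap2a lies on chromosome 13 and went from a mean of 81.1 to 52.2 CPM in the main scaling (edgeR FDR 0.0549). Cdx2, the other, stood at 8.93 and 9.90 CPM. Library totals include the raised chromosome 11, which lowers the share of other chromosomes in D2-13B6. The naive pluripotency list held 8324 and 8038 against 8722 and 9202.

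**Figure D5:**
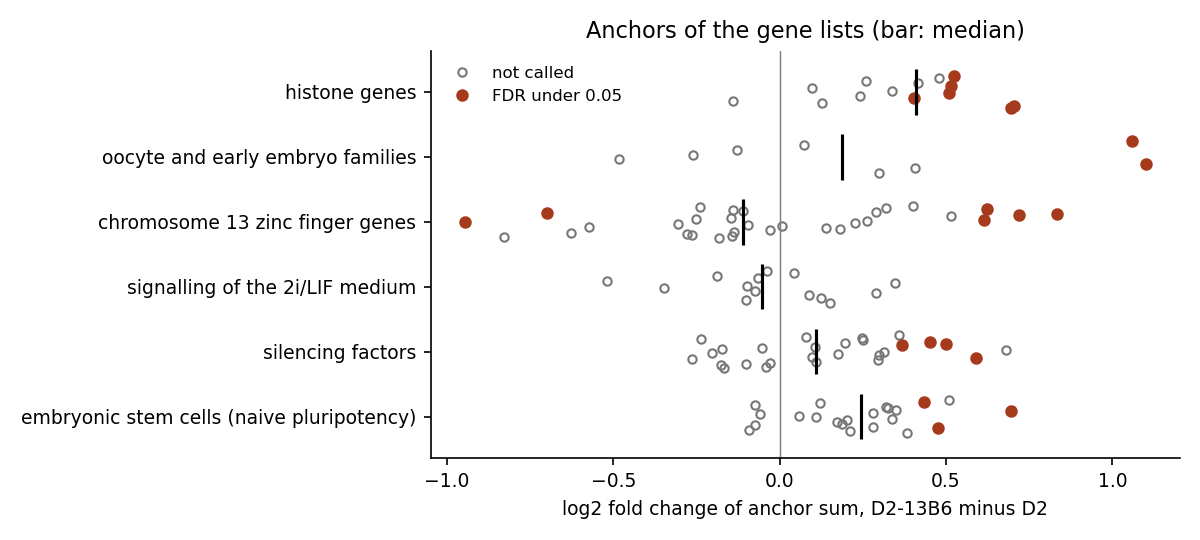
Log2 fold change of the anchor sum in D2-13B6 minus D2 (x axis) for each tested anchor of 6 gene lists (y axis, 1 circle per anchor, filled where the FDR is under 0.05, bar at the median). Histone and naive pluripotency anchors lie mostly above 0, with medians of 0.41 and 0.25, and the chromosome 13 zinc finger anchors spread from -0.95 to 0.83.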

How the data were processed

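The authors deposited 1 table of raw counts, the number of read pairs for each loop and library, with no normalization. Per the submitters' processing notes, reads were handled with BWA 0.7.18, SAMtools 1.19.2 and edgeR 3.34.1 on mm10. The loop caller and the treatment of reads with several matches are not given in the sources used here. The mm10 assembly is of C57BL/6J, and how well DBA/2J reads aligned to it was not tested. A loop is a pair of anchors, each a union of 5-kb bins. All 30044 anchors lay within GRCm38, and genes came from GENCODE M21, an anchor being named for a start within it or within 5 kb.

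A loop was tested if 2 or more of the 8 libraries held 5 or more counts, and an anchor if they held 10 or more. The quasi-likelihood test of edgeR 4.0.16 (R 4.3.3) was fitted to all 8 libraries with 1 mean per line. TMM factors were computed off chromosome 11, which had its own factor. P-values were adjusted by Benjamini-Hochberg over all tested loops or anchors. The SE was computed from F as the absolute log2 fold change over its root, and CPM are counts scaled by these factors. Replicates of D2 and D2-13B6 differed by slightly more than sampling noise (chi-square over degrees of freedom 1.09 and 1.05), and none were merged. Counts carry no molecular identifiers, so intervals cover counting error only. The fit was tested on simulated data.

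Members and lists were chosen with earlier results of these data known. Among called loops and anchors whose D2-13B6 libraries did not overlap with D2, those with the smallest FDR were named in each direction, 6 off chromosomes 11 and 13, 4 on chromosome 13 and 2 on chromosome 11, skipping sites within 1 Mb of one already named, and also up to 6 called per list. Alternatives covered scaling, count minimum, DESeq2 1.42.0, a replicate block and left-out libraries.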

Additional observations from a re-analysis of the deposited data

Results flagged for a closer look

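A change with the B6 allele of the interval that differed between the D2 and the B6 background, by edgeR's interaction test, occurred at 35 sites, whether or not they were called in D2-13B6 against D2. These were 5 of the 24 named loops, against 0.517% of all tested loops, and 30 of the 154 anchors named or tested in a gene list, against 3.61% of all tested anchors. Named sites were chosen on D2-13B6 minus D2, which is part of this difference. The values are log2 differences, D2-13B6 minus D2 less B6 minus B6-13D2. Because both congenic lines held more counts than the parental lines, each FDR is followed by the one with the trend on abundance removed.

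Among histone sites, the call held in both fits for all but the anchor of Hist1h2ag (0.84, FDR 0.00126 and 0.0884). The contacts inside the anchor from Hist1h4h to Hist1h4d differed by 1.90 (FDR 1.48e-21 and 1.63e-14), and the sum of that anchor by 1.63 (9.11e-12 and 3.99e-08). The anchor of Hist1h1a to Hist1h4b differed by 2.04 (2.35e-12 and 5.23e-10), that of Hist1h1b by 1.58 (1.6e-07 and 7.91e-06) and that of Hist1h2ai by 1.32 (4.7e-07 and 6.76e-05). Besides Hist1h2ag, the anchors not called in D2-13B6 against D2 were those of Hist1h1t (1.70, FDR 0.000136 and 0.000397), Hist1h2ac (1.66, 2.89e-05 and 0.000177), Hist1h2ak (1.36, 1.48e-06 and 9.63e-05) and Hist1h2ao (1.15, 0.00775 and 0.0335). On chromosome 3, the anchor of Hist2h2aa1 differed by 1.30 (1.67e-08 and 7.91e-06) and that of Hist2h2ab by 1.22 (9.84e-06 and 0.000397).

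Mkrn1 contacts differed by 1.14 (FDR 1.41e-09 and 0.0145). The anchors of Obox6 and Crx (-1.03, FDR 0.00169 and 0.000177), in Etl4 (-1.41, 0.00485 and 0.0184) of Zfp729a (-0.74, 0.0434 and 0.0295) and of Zfp85 (-0.69, 0.0243 and 0.00175) were also called in both fits. The remaining sites were called only with the trend kept. These were the loops at Stoml1 (1.14, FDR 0.00165 and 0.129), at Dppa5a (0.87, 0.000925 and 0.483) and at Xbp1 (0.82, 0.000455 and 0.388). Among anchors they were Akr1c21 (-1.72, FDR 0.0134 and 0.0696), Timp2 (-1.06, 0.0317 and 0.109), Dppa5a (0.85, 0.000215 and 0.0699) and Pou5f1 (0.62, 0.01 and 0.647). The same held for the silencing factors Trim28 (0.69, FDR 0.00467 and 0.346), Morc3 (0.53, 0.0162 and 0.951), Daxx (0.68, 0.00442 and 0.535) and Zfp57 (0.66, 0.00161 and 0.847). It also held for anchors not called in D2-13B6 against D2. These were Atf7ip (0.74, FDR 0.000593 and 0.497), Atrx (0.68, 0.00964 and 0.271), Sox2 (0.61, 0.0225 and 0.473), Cbx5 (0.58, 0.00951 and 0.804), Junb (0.54, 0.0491 and 0.674), Zp3 (0.49, 0.0297 and 0.648) and Cbx1 (0.49, 0.033 and 0.958).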

How the results depend on the processing

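The 241 called loops became 407 with 1 TMM factor per library, 134 with the trend on abundance removed, 155 with a replicate block and 123 at an FDR of 0.01. Leaving out single libraries gave 47 to 101. With no filter beyond 1 count, edgeR called 0 loops, with 5610 at an unadjusted p under 0.05, while DESeq2 called 186 and gave no adjusted p to 42470 of the 44706 filtered loops. The 655 called anchors became 1238, 353, 431 and 253 under the first 4 settings, 419 with DESeq2 (17271 without an adjusted p), 1294 with only the 4 libraries in the fit, and 52 to 228 with a library left out. The difference between backgrounds, called at 231 loops, was called at 147 with library totals alone, 58 with the trend removed, 0 with no filter (6977 at an unadjusted p under 0.05 in edgeR, and 221 by DESeq2, with 41604 loops without an adjusted p), 138 with the replicate block, 123 at an FDR of 0.01 and 45 to 171 with a library left out. At anchors, 766 became 197 with the trend removed, 469 with the replicate block, 286 at an FDR of 0.01 and 118 to 410 with a library left out. The cause of these moves was not tested. The chromosome 11 ratio was 1.35 in every setting but 1.34 over tested loops alone. Same-numbered replicates of D2 and D2-13B6 did not deviate together (correlation -0.0182 over tested anchors), so the numbers pair nothing. No call reversed among the 724 values of the 48 named sites, of which 644 stayed called and 80 were not; 41 sites stayed called in each setting that gave them a value, left-out libraries and the unfiltered fit aside, but DESeq2 gave an adjusted p to only 28 of the 48. Span-class factors were not run for anchors, which have no span. With a library left out, the lone library of a line is assumed to vary like the others. The median tested loop had 5 to 9 counts in these 4 libraries.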
